A study of Mus musculus with 24 samples.

Results

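The comparison covers 6 of the 24 RNA-seq libraries of a study of mouse embryonic fibroblasts (MEFs), connective tissue cells cultured from minced embryos. They are the 3 libraries titled as glucocorticoid receptor (GR) mutant with dexamethasone and LPS, set against the 3 titled as wild type with the same treatment. The titles alone chose them. The mutant cells were homozygous for an allele that the labels call GR Zn, and their descriptions also carry the name C437G. The wild-type cells carried GR wt / wt. All 6 cultures came from male C57BL/6 embryos of day 13.5, were grown for a week, and received 1 uM dexamethasone (Dex, a synthetic glucocorticoid) in ethanol for 16 h and bacterial lipopolysaccharide (LPS) in PBS at a labelled 100 ng/ul for 6 h. For comparison, the same genotypes with ethanol and LPS but no Dex, and with ethanol vehicle alone, gave 3 libraries each per genotype. Head and internal organs had been removed from the embryos, and the origin of each replicate (embryo or culture) is not labelled, so that p-values measure the spread between these libraries only. The genotype and the embryos that carried it cannot be told apart.

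GR is a nuclear receptor that moves into the nucleus when it binds a glucocorticoid. There it raises genes such as Fkbp5 and Tsc22d3 from glucocorticoid response elements, and it holds down inflammatory genes that NF-kB, AP-1 and interferon regulatory factors turn on. LPS is sensed through TLR4 and CD14, activates NF-kB and IRF3 within hours, and through secreted interferon also activates factors, STAT2 and IRF9 among them, that bind interferon-stimulated response elements. Cells with a working receptor therefore usually show a damped inflammatory response when LPS follows a glucocorticoid.

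The counts came from a stranded library, and 19.51 to 20.97 M reads were counted in genes in the mutant libraries, against 23.03, 23.21 and 57.95 M in the wild-type libraries. Levels are given as counts per M counted reads with TMM scaling (CPM), as mean ± SD over 3 libraries per group. Principal component 1 of these 6 libraries held 58.3% of their variance and set mutant against wild type, and component 2 held 23.1%. The deepest, wild-type replicate 3, belongs to a later library number series. Mutant replicate 2 and wild-type replicate 1 stood apart from the rest of their groups by transcript length. Their deviations from the group mean ran against exon length across genes (rho of -0.610 and -0.616), while those of the other 4 ran with it (0.355 to 0.519). Deviations within a group cancel out, so that the positive values follow in part from the negative ones. Mutant replicates 1 and 3 differed by a chi-square of 1.9 per degree of freedom, where counting noise alone gives 1. The other pairs within a group differed by 20.6 to 61.1. Whether those 2 mutant libraries came from separate embryos or cultures is not labelled. Without the 3 libraries that stand apart (mutant replicate 2 and wild-type replicates 1 and 3), a single wild-type library with both agents remains. It is then assumed to vary like the other groups. The later number series also holds mutant replicate 1 with vehicle and mutant replicate 2 with LPS alone (53.11 and 43.9 M counted reads). Among the treatments compared, it thus falls on wild type with both agents, but on mutant with LPS alone and with vehicle. Its part in the differences between treatments was not tested separately. Fits without 5 libraries leave out these mutant libraries as well as the 3.

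Nr3c1, the gene of GR itself, was read in all 6 libraries, with 111, 69.6 and 100.4 CPM in mutant replicates 1 to 3, against 50.5, 66.8 and 72.7 CPM in wild-type replicates 1 to 3. The ranges overlapped through mutant replicate 2, and the mean was 1.47-fold higher in the mutant cells (log2 0.56, adjusted p = 0.00134). Fitted on the 6 libraries alone, the difference was 0.57 on the log2 scale with an adjusted p of 0.0909, so that the call does not stand there. Across 15 other settings, that fit among them, the log2 difference ran from 0.42 to 0.73. Counts per gene do not show a changed base, so they do not check the allele. All 14 fibroblast markers listed were tested, and together they took 2.36% ± 0.0836 of counted reads in mutant libraries and 1.91% ± 0.232 in wild-type libraries.

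With Dex and LPS present, mutant cells had more interferon-stimulated, chemokine and cytokine RNA than wild-type cells and less glucocorticoid-induced RNA. Of 15221 genes tested, 4832 (31.7%) passed an adjusted p of 0.05 in edgeR's quasi-likelihood test, 2282 of them (15.0%) higher and 2550 (16.8%) lower in mutant cells. At least 2-fold, 672 (4.41%) were higher and 681 (4.47%) lower. The median log2 difference over all genes tested was -0.00, and the CPM ranges of the groups did not overlap for 4992 genes (32.8%). The number called depends on the libraries that estimate the spread. Fitted on these 6 libraries alone, 2492 genes were called, 2487 of them among the 4832. Without the 3 libraries that stand apart, 4233 were called, and 3496 were shared. Leukocyte markers moved with these groups: their summed level was 264 to 295 CPM in mutant libraries, against 128 to 139 CPM in wild-type libraries, and their part in the inflammatory gene differences was not tested. In RNA of whole cultures, fewer cells of a type and less RNA per cell cannot be told apart.

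**Figure D1:**
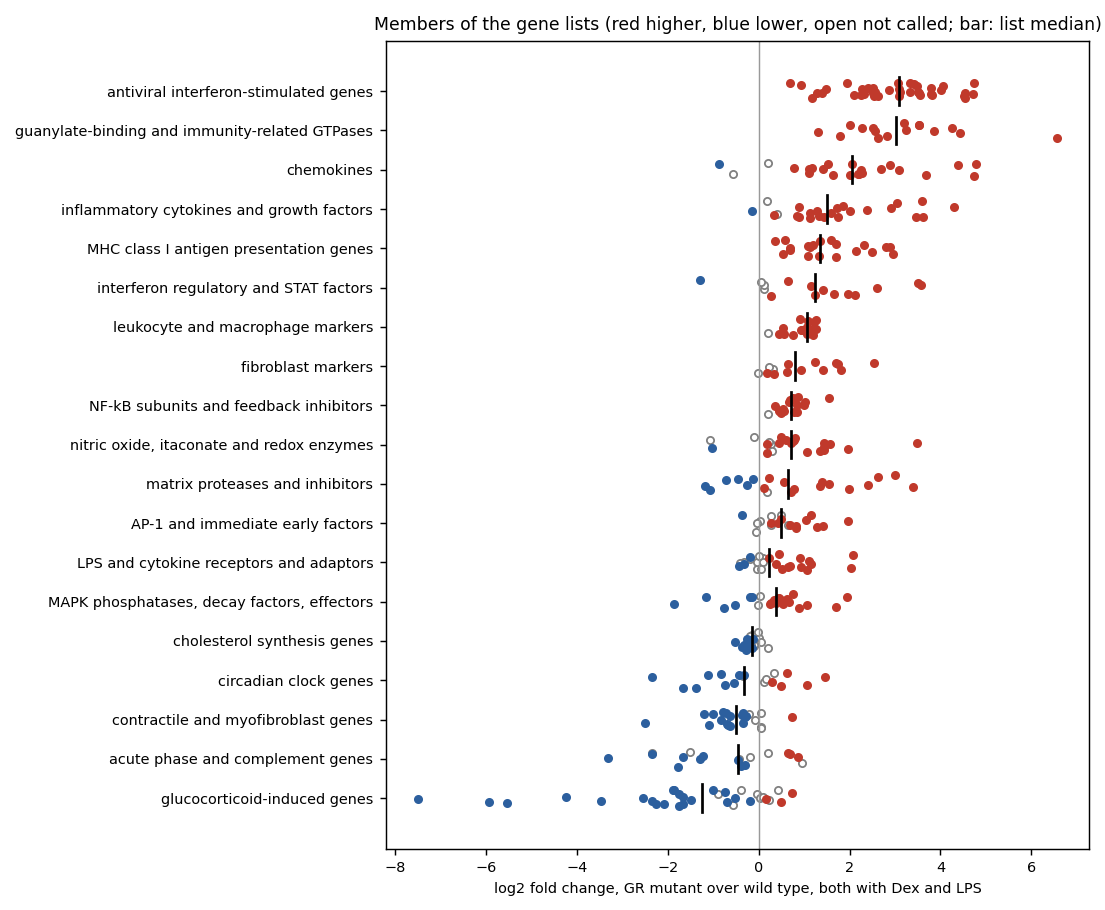
Each point is 1 tested member of a gene list (rows), placed by its log2 fold change, GR mutant over wild type, both with Dex and LPS (x axis); red points were called higher, blue points lower, open points neither, and the bar is the list median. The interferon-stimulated list sits wholly to the right, with a median of 3.08, and the glucocorticoid-induced list mostly to the left, with a median of -1.25.

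Many genes known to be induced by glucocorticoids were lower in mutant cells. Of 32 listed glucocorticoid-induced genes, all tested, 21 were lower in mutant cells and 3 were higher, with a median log2 difference of -1.25. Fkbp5, a co-chaperone that lowers the hormone affinity of GR, had 42.5, 40.9 and 42.2 CPM in the mutant libraries, against 253, 243 and 235 CPM in the wild-type libraries. No mutant library came near the wild-type range, and the difference was 5.82-fold (log2 -2.54 ± 0.06 SE, adjusted p = 7.64e-19). The RNA for GILZ, an anti-inflammatory leucine zipper protein (Tsc22d3), had 20.5, 19.6 and 17.9 CPM in mutant libraries, against 76.6, 66.4 and 68.2 CPM in wild-type libraries. Per1, a clock repressor with a classical glucocorticoid response element, averaged 28.8 ± 0.844 CPM in mutant cells and 91.9 ± 11.3 CPM in wild-type cells, and Glul, glutamine synthetase, averaged 27.2 ± 0.578 and 86.1 ± 2.30 CPM in the same order. Pdk4, a kinase that turns off pyruvate dehydrogenase, was 11.1-fold lower in mutant cells, at 5.80 ± 0.577 CPM in mutant and 64.5 ± 10.2 CPM in wild-type cells. Lcn2, a siderophore-binding protein of the acute phase, fell to 6.13 ± 0.571 CPM in mutant cells, against 31.3 ± 7.10 CPM in wild-type cells.

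At the low end of the same list, mutant cells had almost no reads of several members. Zbtb16, a zinc finger repressor, had 2 reads in the 3 mutant libraries together, against 752 reads in the 3 wild-type libraries. After scaling to depth that is 219-fold lower in mutant cells, with an exact 95% counting interval of 60.3 to 1809, which covers counting error only. Hif3a, a hypoxia-inducible factor subunit, had 0, 0 and 0.197 CPM in mutant libraries, against 3.11, 4.97 and 5.17 CPM in wild-type libraries. Sult1a1, a phenol sulfotransferase, had 3 reads in mutant and 265 in wild-type libraries, 51.4-fold lower in mutant cells with an interval of 17.4 to 250.6.

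Not every member of the list was lower. The 3 that were higher in mutant cells, named here after their values were seen, were Angptl4, an inhibitor of lipoprotein lipase, Errfi1, an inhibitor of EGF receptor signalling, and Nfkbia, the NF-kB inhibitor IkB alpha, which NF-kB itself also induces. Angptl4 averaged 34.1 ± 4.33 CPM in mutant cells and 20.5 ± 2.68 CPM in wild-type cells. Errfi1 differed by a log2 of 0.16 only, a call lost in 4 of 15 other settings, and Nfkbia averaged 251 ± 13.8 CPM in mutant and 178 ± 26.2 CPM in wild-type cells. Dusp1, a phosphatase of p38 and JNK kinases, averaged 43.0 ± 2.21 CPM in mutant cells and 49.2 ± 4.33 CPM in wild-type cells (log2 -0.19, adjusted p = 0.031), a call that was lost in 8 of 15 other settings of the fit. Zfp36, the mRNA decay factor tristetraprolin, averaged 72.9 ± 1.15 CPM in mutant cells and 71.6 ± 5.71 CPM in wild-type cells and did not pass the test (adjusted p = 0.781). Dusp1 and Zfp36 were also named after their values were seen.

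Of the 26 members of this list with a RefSeq promoter window, 1 held a full palindromic response element. That member is Sgk1, a kinase that glucocorticoids and mineralocorticoids induce. It had 103, 96.1 and 107 CPM in mutant libraries, against 199.8, 202 and 216 CPM in wild-type libraries, which is 2.02-fold lower in mutant cells with no overlap. RefSeq lists 6 start sites for Sgk1 on GRCm38.p6. The 250 bases before the one that holds the element, chr10:21993640-21993889 on the plus strand, are shown with the match to the full element (AGAACA, 3 bases of any kind, TGTTCT) in capitals, 189 to 175 bases before the start.
Sgk1: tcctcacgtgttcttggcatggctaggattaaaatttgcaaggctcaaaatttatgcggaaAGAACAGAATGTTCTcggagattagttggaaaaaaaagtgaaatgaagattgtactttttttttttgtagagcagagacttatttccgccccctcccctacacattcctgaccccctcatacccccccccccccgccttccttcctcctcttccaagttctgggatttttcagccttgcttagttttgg
Only 3 of 32851 RefSeq promoter windows in the mouse genome, each 300 bases long, hold this full palindrome. Glucocorticoid response elements are often far from start sites and seldom perfect, so that the count says nothing of the other genes in the list.

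Ifit1, Neurl3 and Il6 mark the comparison. GENCODE vM21 on GRCm38 places Ifit1 (ENSMUSG00000034459) at chr19:34640871-34650009, Neurl3 (ENSMUSG00000047180) at chr1:36264597-36274679 and Il6 (ENSMUSG00000025746) at chr5:30013114-30019981. Ifit1, an interferon-induced protein that binds viral RNA, had 552, 366 and 459 CPM in mutant libraries, against 18.9, 18.2 and 21.2 CPM in wild-type libraries. All mutant values were far above the wild-type range, 23.4-fold by the fit (log2 4.55 ± 0.18 SE, adjusted p = 2.36e-14). With LPS alone Ifit1 averaged 323 ± 35.1 CPM in mutant cells and 184 ± 12.9 CPM in wild-type cells. With vehicle it averaged 2.03 ± 1.03 CPM in mutant cells and 0.973 ± 0.268 CPM in wild-type cells. Of these 3 treatments, mutant cells had their highest Ifit1 mean with both agents and wild-type cells theirs with LPS alone. The genotype difference was larger with both agents than with LPS alone by 3.74 ± 0.22 on the log2 scale (adjusted p = 1.93e-10).

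Il6, the cytokine interleukin 6, had 59.2, 58.2 and 55.5 CPM in mutant libraries, against 11.2, 9.54 and 12.3 CPM in wild-type libraries. Mutant and wild-type values did not overlap. That is 5.18-fold higher in mutant cells (log2 2.37 ± 0.10 SE, adjusted p = 1.58e-14). With LPS alone the genotypes averaged 55.5 ± 4.28 CPM in mutant and 49.97 ± 3.29 CPM in wild-type cells, a difference that did not pass the test (adjusted p = 0.23). The genotype difference was larger with Dex by 2.22 ± 0.13 on the log2 scale (adjusted p = 6.50e-11).

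Neurl3, an E3 ubiquitin ligase that LPS induces, had 24.1, 21.2 and 22.4 CPM in mutant libraries, against 8.36, 7.21 and 6.98 CPM in wild-type libraries, and was 3.03-fold higher in mutant cells with no overlap (adjusted p = 1.64e-09). With LPS alone it ran the other way, at 21.4 ± 1.71 CPM in mutant and 29.6 ± 0.721 CPM in wild-type cells (log2 -0.47, adjusted p = 0.00597). Across 15 other settings of the fit, the log2 difference with Dex and LPS was 4.41 to 4.82 for Ifit1, 2.29 to 2.61 for Il6 and 1.54 to 1.71 for Neurl3, and each call stood in all 15.

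**Figure D2:**
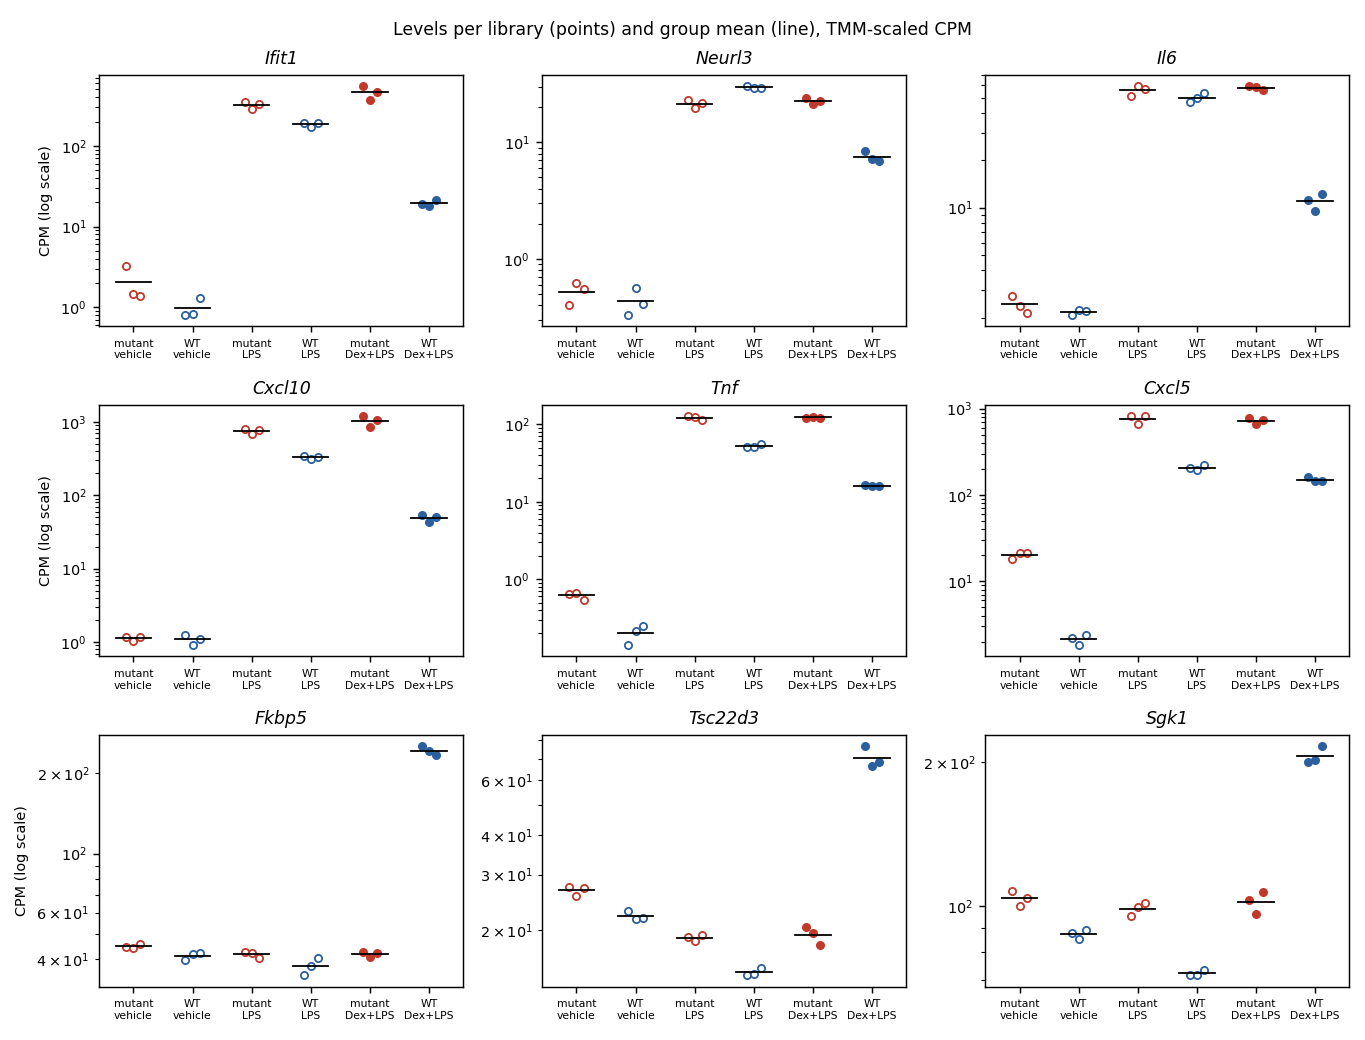
TMM-scaled CPM on a log axis for 9 genes in each library (points) of the mutant (red) and wild-type (blue) groups with vehicle, LPS, and Dex with LPS (x axis), with the group mean as a line; filled points are the 6 libraries with both agents. In the upper 6 panels the filled red points lie above the filled blue ones, and in the lower 3 (Fkbp5, Tsc22d3, Sgk1) they lie below them.

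Promoters of marker genes hold matches to the elements of interferon and NF-kB signalling. The next 4 sequences are the 250 bases before the RefSeq start on GRCm38.p6, 5′ to 3′ along each gene's strand. Capitals mark matches, on either strand, to an interferon-stimulated response element (ISRE: GAAA, 2 bases of any kind, GAAA), a kappaB site (GGGA, any base, TTTCC) or an AP-1 site (TGANTCA). Ifit1 lies at chr19:34640639-34640888 on the plus strand and Cxcl10 at chr5:92348890-92349139 on the minus strand. Il6 lies at chr5:30012864-30013113 on the plus strand and Neurl3 at chr1:36273426-36273675 on the minus strand. The annotations differ: by the GENCODE positions given above, the Neurl3 window lies inside the gene, and so do the last bases of the Ifit1 window.
Ifit1: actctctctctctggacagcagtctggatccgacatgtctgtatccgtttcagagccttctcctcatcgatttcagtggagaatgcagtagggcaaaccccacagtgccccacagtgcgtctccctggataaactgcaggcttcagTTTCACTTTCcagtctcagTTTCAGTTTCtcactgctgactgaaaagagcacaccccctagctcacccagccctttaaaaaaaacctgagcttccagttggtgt
Cxcl10: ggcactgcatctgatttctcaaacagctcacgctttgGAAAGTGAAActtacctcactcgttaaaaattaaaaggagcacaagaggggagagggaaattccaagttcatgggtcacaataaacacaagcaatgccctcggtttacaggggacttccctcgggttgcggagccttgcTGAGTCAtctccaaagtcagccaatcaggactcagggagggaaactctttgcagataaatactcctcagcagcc
Il6: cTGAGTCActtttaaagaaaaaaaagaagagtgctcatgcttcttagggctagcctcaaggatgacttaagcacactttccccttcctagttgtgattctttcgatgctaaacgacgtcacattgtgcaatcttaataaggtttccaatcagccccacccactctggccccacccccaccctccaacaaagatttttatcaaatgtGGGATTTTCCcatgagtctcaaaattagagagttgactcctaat
Neurl3: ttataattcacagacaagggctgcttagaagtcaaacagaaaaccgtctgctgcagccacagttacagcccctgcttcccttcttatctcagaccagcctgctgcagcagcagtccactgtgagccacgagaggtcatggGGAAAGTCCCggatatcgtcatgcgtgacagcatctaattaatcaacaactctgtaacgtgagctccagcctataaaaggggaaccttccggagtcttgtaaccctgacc
Ifit1 holds 2 ISRE matches, at 104 to 95 and 85 to 76 bases before its start. Cxcl10, an interferon-induced chemokine, holds 1 ISRE match at 213 to 204 bases and 1 AP-1 match at 74 to 68 bases. Il6 holds a kappaB match at 44 to 35 bases and an AP-1 match at 249 to 243 bases, and Neurl3 a kappaB match at 110 to 101 bases. A match is a run of letters and was not shown to be bound. Near forms of each element were not searched, so that a lack of capitals does not show that a site is absent.

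Counted over the full windows of 300 bases, an ISRE match was found in 3.44% of 32851 windows, and in 3.99% of the 27025 genes they belong to. Of the interferon-stimulated list, 30 genes had a RefSeq window and 16 of them (53.3%) held an ISRE match. Of the interferon-induced GTPases, 11 had a window and 10 held one. Among genes called at least 2-fold higher in mutant cells, 83 of 476 with a window (17.4%) held an ISRE match, against 15 of 469 genes called at least 2-fold lower (3.20%) and 221 of 7373 genes not called. The kappaB match as defined here was found in 0.466% of genes with a window. It was found in 3 of 15 chemokine genes and in 3 of 15 genes of the NF-kB feedback list. Rates of different elements depend on how many letters each pattern fixes and do not rank the elements. AP-1 matches were found in 8.97% of all genes with a window, in 14.9% of those called at least 2-fold higher, in 11.1% of those called at least 2-fold lower and in 5.45% of those not called.

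The interferon-stimulated genes, which make cells resistant to viruses, were higher without exception. All 39 tested members of a list of 40 were higher in mutant cells, with a median log2 difference of 3.08, beside -0.00 over all genes tested. The untested member, Ifi44l, had 3 reads in each group. Mx2, a dynamin-like antiviral GTPase, had 42.5, 32.1 and 39.2 CPM in mutant libraries, against 1.33, 1.43 and 1.45 CPM in wild-type libraries, 26.7-fold higher in mutant cells (adjusted p = 2.96e-17). Oasl1, a 2'-5' oligoadenylate synthetase-like protein, averaged 40.1 ± 3.30 CPM in mutant and 1.75 ± 0.298 CPM in wild-type cells. Usp18, which removes ISG15 from proteins and dampens the interferon receptor, averaged 114 ± 16.2 and 8.19 ± 0.372 CPM, and the ubiquitin-like modifier Isg15 itself 151 ± 9.11 and 11.1 ± 2.13 CPM, in the same order. Ifit3 and Ifit3b, which share reads and whose split is uncertain, were 22.8-fold and 26.1-fold higher. The smallest difference in the list belonged to a gene with high levels in both groups: Ifitm3, a membrane protein that blocks virus entry, had 449, 510.4 and 451 CPM in mutant libraries, against 348, 282 and 249 CPM in wild-type libraries, 1.61-fold higher.

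As a share of all counted reads, the interferon-stimulated list took 0.450% ± 0.0793 in mutant libraries, against 0.0880% ± 0.00235 in wild-type libraries. With LPS alone the shares were 0.348% ± 0.0311 in mutant cells and 0.229% ± 0.00520 in wild-type cells. With vehicle they were 0.0543% ± 0.00515 in mutant cells and 0.0439% ± 3.61e-05 in wild-type cells. The mutant share varied by library, at 0.520%, 0.364% and 0.465% in replicates 1 to 3, and the lowest, replicate 2, is the one set apart by transcript length. Without the 3 libraries that stand apart, all 39 were again called higher, with a median of 3.40.

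Transcription factors of the interferon response followed. Of 15 tested members of the IRF and STAT list, 11 were higher and 1 lower in mutant cells, with 0 lower without the 3 libraries that stand apart. Irf7, which amplifies type I interferon production, had 83.9, 74.9 and 78.7 CPM in mutant libraries, against 8.14, 5.87 and 6.18 CPM in wild-type libraries, 11.9-fold higher. Stat2, a transcription factor activated by type I interferon, averaged 198 ± 26.1 CPM in mutant and 45.8 ± 3.65 CPM in wild-type cells. Irf9, its DNA-binding partner, averaged 89.4 ± 3.19 and 28.1 ± 1.89 CPM in the same order. Irf1, an NF-kB target, was 2.67-fold higher. Ifnb1, which encodes interferon beta, was too low to test, with 11 reads in mutant and 2 reads in wild-type libraries. With LPS alone 12 of the 15 tested members of the list were higher and 1 lower. The median log2 difference was 0.42 there, beside 1.23 with both agents.

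All 16 tested interferon-induced GTPases, which attack the vacuoles of intracellular pathogens, were higher in mutant cells, with a median log2 difference of 3.01. Igtp averaged 85.0 ± 15.8 CPM in mutant and 7.28 ± 1.79 CPM in wild-type cells, and Irgm2 126 ± 27.8 and 13.6 ± 2.25 CPM. Irgm1 had 377, 296 and 359 CPM in mutant libraries, against 80.5, 80.2 and 93.2 CPM in wild-type libraries. With LPS alone Irgm1 averaged 272 ± 7.05 CPM in mutant and 298 ± 6.94 CPM in wild-type cells and was not called (adjusted p = 0.328). The genotype difference was larger with both agents by 2.15 ± 0.13 on the log2 scale. Gbp10 had 27 reads in mutant and 0 in wild-type libraries, at least 15.5-fold higher against 3 reads over the group, and the median of the list is the same with that bound. All 20 genes of MHC class I antigen presentation were also higher, with a smaller median of 1.35. H2-Q4, a class I heavy chain, averaged 63.0 ± 5.37 CPM in mutant and 12.7 ± 0.903 CPM in wild-type cells. Tap1, a subunit of the peptide transporter of the endoplasmic reticulum, averaged 78.9 ± 9.16 and 17.98 ± 2.27 CPM, and the immunoproteasome subunit Psmb8 27.4 ± 2.06 and 4.85 ± 0.548 CPM, in the same order.

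Chemokines took more reads in mutant cells than the cytokine, GTPase or interferon-stimulated lists. Of 23 tested, 20 were higher and 1 was lower in mutant cells, with a median log2 difference of 2.05. Cxcl10, which draws T cells and NK cells, had 1194, 856 and 1043 CPM in mutant libraries, against 53.4, 43.3 and 50.2 CPM in wild-type libraries. All wild-type values lay far below the mutant range, and the fit gave 21.0-fold (log2 4.39 ± 0.12 SE, adjusted p = 9.97e-17). Its neighbours on chromosome 5, Cxcl9 and Cxcl11, which bind the same receptor, were 27.6-fold and 26.7-fold higher. Cxcl5, a neutrophil chemokine, had 783, 664 and 735 CPM in mutant libraries, against 162, 147 and 144 CPM in wild-type libraries. Cxcl5 was also higher in mutant cells with LPS alone (764 ± 90.2 CPM in mutant and 207 ± 12.9 CPM in wild-type cells) and with vehicle (20.4 ± 1.99 and 2.14 ± 0.285 CPM). Ccl2, a monocyte chemokine, had 2052, 2202 and 2046 CPM in mutant libraries, against 1073, 891 and 849 CPM in wild-type libraries, 2.24-fold higher. Its neighbour Ccl7 was 2.15-fold higher.

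The single chemokine lower in mutant cells was Cxcl12, the constitutive stromal chemokine that holds CXCR4-bearing cells. It had 194, 198 and 199 CPM in mutant libraries, against 350.5, 365 and 369 CPM in wild-type libraries (log2 -0.87, adjusted p = 6.43e-15). It was lower with LPS alone too (log2 -1.24) and with vehicle (log2 -1.12). Ccl17, a CCR4 ligand, and Ccl20, both named after their values were seen, did not pass the test, although Ccl20 did in 4 of 15 other settings. Ccl20, the CCR6 ligand, averaged 165 ± 11.2 CPM in mutant and 143 ± 18.2 CPM in wild-type cells. In all, chemokine transcripts took 0.603% ± 0.0136 of counted reads in mutant libraries, against 0.240% ± 0.0227 in wild-type libraries.

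Of 24 tested cytokines and growth factors, 21 were higher and 1 was lower in mutant cells, with a median log2 difference of 1.51. Tnf, tumour necrosis factor, had 119, 126 and 122 CPM in mutant libraries, against 16.3, 15.9 and 16.2 CPM in wild-type libraries, 7.56-fold higher with very little spread in either group (adjusted p = 1.08e-16). The interleukin-1 genes differed more: Il1b had 70.6, 77.9 and 69.9 CPM in mutant libraries, against 6.27, 4.93 and 6.34 CPM in wild-type libraries. Il1a averaged 39.5 ± 2.399 CPM in mutant and 4.67 ± 0.735 CPM in wild-type cells. Lif, an IL-6 family cytokine, had 381, 384 and 381 CPM in mutant libraries, against 104, 107 and 105 CPM in wild-type libraries. Csf1, the macrophage growth factor, was the most abundant of the list per kb of exon and averaged 1754 ± 20.8 CPM in mutant and 950.2 ± 17.6 CPM in wild-type cells, 1.85-fold higher. Vegfa, the vascular growth factor, was 2.17-fold higher.

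Other members of the list, named after their values were seen, mark its ends. Il12b, the p40 subunit shared by IL-12 and IL-23, was the furthest apart, at 13.3 ± 1.24 CPM in mutant and 0.662 ± 0.117 CPM in wild-type cells. Il1rn, the antagonist of the IL-1 receptor, was the 1 member lower in mutant cells, at 95.2, 81.7 and 91.7 CPM in mutant libraries, against 97.7, 94.8 and 105 CPM in wild-type libraries. Its groups overlapped and its adjusted p was 0.0424. It lost the call in 8 of 15 other settings and changed sign in 2, and without the 3 libraries that stand apart its log2 difference was 0.00. Csf3, the granulocyte growth factor, and Il34, a second ligand of the CSF1 receptor, did not pass the test, although Csf3 did in 6 of 15 other settings. Together the list took 0.314% ± 0.00773 of counted reads in mutant libraries, against 0.149% ± 0.00365 in wild-type libraries.

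**Figure D3:**
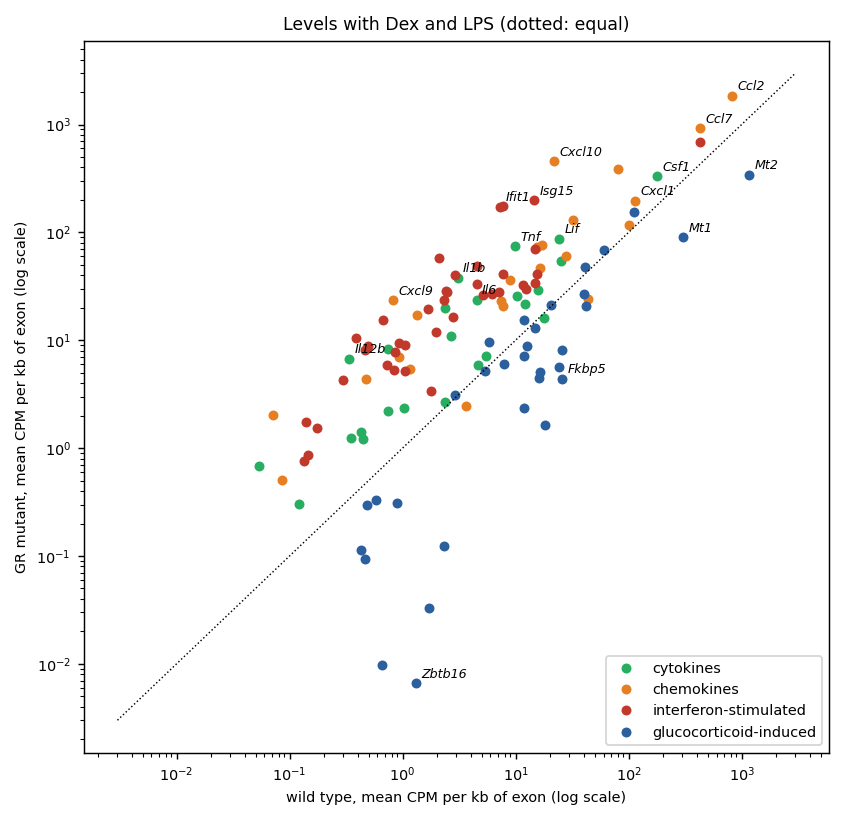
Mean level with Dex and LPS in GR mutant cells (y axis) against wild-type cells (x axis), in CPM per kb of exon on log axes, for tested members of 4 lists; the dotted line marks equal levels. Chemokines, cytokines and interferon-stimulated genes lie mostly above the line and glucocorticoid-induced genes mostly below it, with Ccl2 the highest point in mutant cells and Mt2 the highest in wild-type cells.

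Levels per kb of exon, which allow genes to be compared with each other, put these differences in order. Ccl2 was the gene ranked 7 of 15173 in mutant cells (1845 CPM per kb) and 26 in wild-type cells (824 CPM per kb). Cxcl10 ranked 75 in mutant cells and 2368 in wild-type cells, at 458 and 21.7 CPM per kb. Ifit1 ranked 248 in mutant and 5670 in wild-type cells, and Tnf 614 and 4678, in the same order. Fkbp5 ranked 7471 in mutant cells, against 1958 in wild-type cells. Csf1 was high in both, at rank 113 in mutant and 231 in wild-type cells. Mt2, a metal-binding metallothionein on the glucocorticoid list that was named after its values were seen, ranked 109 in mutant and 17 in wild-type cells. It spread widely in wild-type libraries, at 911, 684 and 452 CPM, beside 182, 239.7 and 183 CPM in mutant libraries.

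NF-kB pathway genes had a smaller median difference than the cytokine and chemokine lists. Of 18 NF-kB subunits and feedback inhibitors, 17 were higher and 0 lower in mutant cells, with a median log2 difference of 0.72, and the 1 not called was the deubiquitinase Cyld, which was called in 4 of 15 other settings. Cyld was named after its values were seen. Nfkb1, the p105 and p50 subunit, had 396, 380.1 and 402 CPM in mutant libraries, against 197, 199 and 199 CPM in wild-type libraries, 1.98-fold higher. Tnfaip3, the inhibitor A20, was 1.68-fold higher, and Traf1, an NF-kB-induced adaptor, 2.90-fold higher. Of 25 genes of LPS and cytokine sensing, 13 were higher and 3 lower, with 1 lower when the 6 libraries were fitted alone. The receptors Tlr2, Cd14 and Il1r1 were 2.15-fold, 2.09-fold and 2.23-fold higher in mutant cells. The adaptor Myd88 averaged 79.5 ± 3.54 CPM in mutant and 41.7 ± 1.93 CPM in wild-type cells. With LPS alone 14 of the 18 NF-kB genes were higher and 0 lower, and 12 of the 25 sensing genes were higher and 2 lower.

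Factors through which glucocorticoids are held to act were split. Of 23 MAP kinase phosphatases, mRNA decay factors and other anti-inflammatory effectors, 14 were higher and 6 lower in mutant cells, with a median log2 difference of 0.38. Anxa1, the phospholipase inhibitor annexin A1, had 1196, 1320.0 and 1218 CPM in mutant libraries, against 2170.0, 1958 and 2213 CPM in wild-type libraries, and Gpx3, secreted glutathione peroxidase, averaged 24.8 ± 3.21 CPM in mutant and 55.5 ± 5.12 CPM in wild-type cells. Both were lower in mutant cells. Dusp4, a phosphatase of ERK, ran the other way and averaged 26.1 ± 2.01 CPM in mutant and 14.1 ± 1.66 CPM in wild-type cells. Of 23 inflammatory enzymes, 17 were higher and 1 lower. Ptges, prostaglandin E synthase, was 2.72-fold higher, Ptger2, a prostaglandin E2 receptor, 11.2-fold higher, and Acod1, the itaconate-making enzyme, 2.73-fold higher. The 1 lower was Gclc, the catalytic subunit of the enzyme that starts glutathione synthesis, at 45.5 ± 1.96 CPM in mutant and 92.7 ± 12.1 CPM in wild-type cells. With LPS alone 14 of the 23 anti-inflammatory effectors were higher and 3 lower, and 12 of the 23 enzymes were higher and 1 lower.

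**Figure D4:**
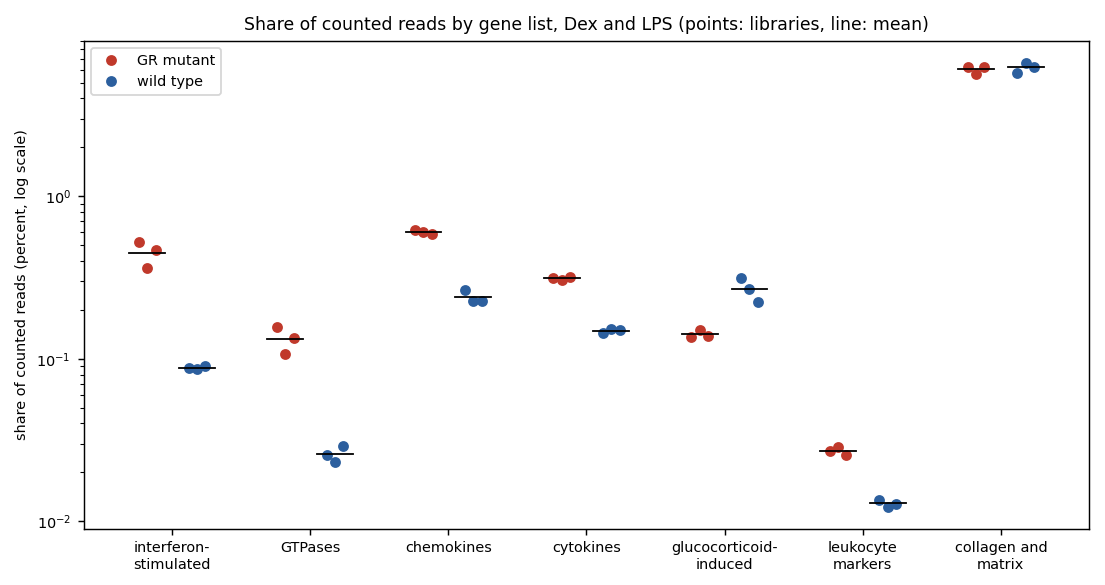
Share of counted reads (percent, log axis) taken by gene lists (x axis) in each library with Dex and LPS (points), GR mutant in red left of wild type in blue, with the group mean as a line. The mutant libraries lie above the wild-type libraries for interferon-stimulated genes, GTPases, chemokines and cytokines, below them for glucocorticoid-induced genes, and above them for leukocyte markers.

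Secreted proteins of the acute phase and complement were more often lower than higher. Of 18 tested, 9 were lower and 3 higher in mutant cells, with a median log2 difference of -0.45. Without the 3 libraries that stand apart the median was -0.32, over 19 members tested there. Serpina3n, a serine protease inhibitor, had 7.43, 6.24 and 4.83 CPM in mutant libraries, against 67.5, 54.0 and 63.4 CPM in wild-type libraries, 10.0-fold lower. With LPS alone it averaged 5.17 ± 0.928 CPM in mutant and 4.40 ± 0.809 CPM in wild-type cells. Cp, the copper carrier ceruloplasmin, was 3.44-fold lower. Matrix proteases and their regulators gave 13 higher and 6 lower of 20. Mmp3 (stromelysin) had 111, 116 and 112 CPM in mutant libraries, against 22.8, 17.9 and 22.9 CPM in wild-type libraries, and Mmp9 and Mmp10 were 3.94-fold and 6.15-fold higher. Plat, tissue plasminogen activator, averaged 140.3 ± 3.48 CPM in mutant and 54.7 ± 1.15 CPM in wild-type cells.

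Surface and immediate early genes showed the same direction in most members. Of 10 adhesion and checkpoint genes, 6 were higher and 2 lower. Cd274, the checkpoint ligand PD-L1, had 54.4, 30.0 and 42.7 CPM in mutant libraries, against 2.62, 3.99 and 4.46 CPM in wild-type libraries, 11.1-fold higher, and Vcam1 was 1.85-fold higher. Alcam was lower with all 3 treatments set side by side here (log2 -0.99 with both agents, -1.03 with LPS and -0.996 with vehicle). Of 19 AP-1 and immediate early genes, 11 were higher and 1 lower. Fosl1, an AP-1 subunit, averaged 66.5 ± 6.44 CPM in mutant and 32.6 ± 4.98 CPM in wild-type cells, and Egr2, a zinc finger factor, 23.1 ± 0.935 and 8.75 ± 0.817 CPM.

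Clock genes, several of which are glucocorticoid targets, gave 9 lower and 5 higher of 18. Per2 had 3.95, 2.78 and 4.14 CPM in mutant libraries, against 17.6, 19.7 and 18.4 CPM in wild-type libraries, 5.11-fold lower, and Cry1 was 2.16-fold lower. Nr1d1, the repressor REV-ERB alpha, ran the other way at 31.0 ± 0.891 CPM in mutant and 11.3 ± 0.771 CPM in wild-type cells. Of 17 adipogenic and lipid-storage genes, 8 were lower and 2 higher. Fabp4, a fatty acid carrier of adipocytes, had 4.66, 5.30 and 4.29 CPM in mutant libraries, against 31.4, 26.6 and 29.7 CPM in wild-type libraries. Lpl, lipoprotein lipase, was 3.002-fold higher in mutant cells and was higher by a like amount with LPS alone (log2 1.55) and with vehicle (log2 1.61).

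Of 23 cholesterol synthesis genes, 8 were lower and 0 higher in mutant cells, with a median log2 difference of only -0.15, and 2 were called lower when the 6 libraries were fitted alone. Msmo1, a sterol oxidase, averaged 199.7 ± 8.85 CPM in mutant and 285 ± 14.7 CPM in wild-type cells. With LPS alone the list gave 12 higher and 0 lower. The matrix list gave 13 higher and 8 lower of 26, with 3 lower in the fit of the 6 libraries. Col6a3, a chain of microfibrillar collagen, was 3.61-fold higher, and the proteoglycan Lum 5.81-fold higher. Of 22 contractile and TGF-beta response genes, 16 were lower and 1 higher. Ccn2, a matricellular growth factor, had 773, 826 and 834 CPM in mutant libraries, against 1992, 1904 and 1736 CPM in wild-type libraries, and Des, the intermediate filament desmin, averaged 15.0 ± 1.21 and 85.0 ± 13.1 CPM. With LPS alone the matrix list gave 14 higher and 7 lower. The contractile list gave 13 lower and 0 higher with LPS alone, and 13 lower and 1 higher with vehicle.

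Proliferation genes differed by small amounts. Of 26, 9 were higher and 2 lower, beside 15.0% and 16.8% of all genes tested, with a median of 0.13. In the fit of the 6 libraries alone 1 was higher and 0 lower, while without 5 libraries that stand apart over all groups 14 were higher. Proliferation genes gave 11 higher and 0 lower with LPS alone, and 13 higher and 0 lower with vehicle. Their log2 difference was above 0 for 21 genes with both agents, 25 with LPS alone and 26 with vehicle. The p53 list, with both agents, gave 5 higher and 6 lower of 22, beside 15.0% higher and 16.8% lower of all genes tested. In the fit of the 6 libraries 3 were called in each direction. Pmaip1, the death protein NOXA, was far from the others, at 46.3, 43.9 and 49.4 CPM in mutant libraries, against 269, 272 and 297 CPM in wild-type libraries, and was lower with LPS alone (log2 -1.98) and vehicle (log2 -1.67) too. Of 35 Hox and limb genes, 14 were lower and 7 higher, the same counts as with LPS alone. Hoxa5 averaged 4.02 ± 0.566 CPM in mutant and 12.2 ± 1.83 CPM in wild-type cells.

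Over the whole table, genes were also ranked by their difference. Among called genes with at least 1 CPM in a group and no overlap, the highest 12 in mutant cells held Ifi208, Cxcl9, Cxcl11, Mx2, Ifit3b, Oasl1, Ifit1, Ifit3, Slc28a2, Gbp4, Slfn4 and Cxcl10. Ifi208, a member of the interferon-inducible p200 family, had 78 reads in mutant libraries and 1 in wild-type libraries, 134-fold higher with a counting interval of 23.4 to 5366. Slc28a2, a nucleoside transporter, had 1.59, 1.68 and 3.01 CPM in mutant libraries, against 0.0445, 0.0896 and 0.106 CPM in wild-type libraries. The 12 lowest in mutant cells were Zbtb16, Spink8, Hif3a, Serpina3m, Sult1a1, Lyve1, Scel, Mid1-ps1, Kcna5, Aldh1a7, Map7d2 and Aldh1a1. Aldh1a1, a retinaldehyde dehydrogenase, averaged 0.511 ± 0.111 CPM in mutant and 14.2 ± 2.04 CPM in wild-type cells. It shares reads with its near copy Aldh1a7, so that the split between them is uncertain. Lyve1, the hyaluronan receptor of lymphatic endothelium, had 0.0512, 0 and 0.148 CPM in mutant libraries, against 2.80, 2.73 and 3.63 CPM in wild-type libraries. Map7d2, a microtubule-associated protein, averaged 0.359 ± 0.113 CPM in mutant and 10.7 ± 0.827 CPM in wild-type cells.

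A pair of these 12 were also called lower with LPS alone and with vehicle. Kcna5, a potassium channel, averaged 0.0685 ± 0.0315 CPM in mutant and 2.82 ± 0.279 CPM in wild-type cells with both agents, 0.0687 ± 0.0863 and 1.63 ± 0.209 CPM with LPS alone, and 0.0517 ± 0.0453 and 2.37 ± 0.580 CPM with vehicle. Mid1-ps1, a pseudogene on the Y chromosome, averaged 0.0828 ± 0.102 CPM in mutant and 3.62 ± 0.945 CPM in wild-type cells with both agents and 0.0258 ± 0.0226 and 2.52 ± 0.159 CPM with vehicle. Its parent gene Mid1 was not called with both agents (log2 -0.36, adjusted p = 0.0514), but was called lower in 5 of 15 other settings, with a log2 difference of -0.77 on unstranded counts. Mid1 was named after its values were seen. Reads of a pseudogene and its parent can be exchanged, so that the Mid1-ps1 values are uncertain.

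The genotypes were also compared with LPS alone and with vehicle, to ask how much of the difference needs the glucocorticoid. With LPS alone 3731 genes (24.5%) were called, 12.6% of all genes higher and 11.9% lower in mutant cells. With vehicle 2861 (18.8%) were called, 8.69% higher and 10.1% lower. These counts give no stable order of the treatments. When each comparison was fitted on its own libraries, 2492 genes were called with both agents, 5534 with LPS alone and 2896 with vehicle. Without the 3 libraries that stand apart the counts were 4233, 5415 and 4195, and without 5 they were 5364, 5501 and 4620, in the same order. Of the 4832 genes called with both agents, 2416 were called in the same direction with LPS alone, which is 50.0% of the list with both agents and 64.8% of the LPS list, and 122 in the opposite direction. With vehicle, 1772 were called in the same direction (36.7% of the list with both agents and 61.9% of the vehicle list) and 168 in the opposite. Pearson's r of the log2 differences across the 15221 genes, which are not independent replicates, was 0.346 with LPS alone and 0.435 with vehicle. With LPS alone, 36 of 39 interferon-stimulated genes, 17 of 23 chemokines, 14 of 24 cytokines and 17 of 20 MHC class I genes were higher in mutant cells. Lower were 0, 3, 2 and 0, in the same order.

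Tested directly, the genotype difference was unequal for 1581 genes (10.4%) between Dex with LPS and LPS alone, 816 (5.36%) with a higher and 765 (5.03%) with a lower mutant-over-wild-type ratio under both agents. Between Dex with LPS and vehicle it was unequal for 1902 genes (12.5%), with a higher ratio for 6.36% and a lower one for 6.14% of genes. The first count was 1042 when the compared libraries alone were fitted, 2183 without the 3 libraries that stand apart and 2970 without 5. The second was 1175, 2055 and 3111 in the same order. Of the interferon-stimulated list, 36 of 39 had a higher ratio with Dex and LPS than with LPS alone, and of the GTPases 16 of 16. Of the chemokines it was 22 of 23, and of the cytokines 18 of 24, with 2 lower. Of the glucocorticoid-induced genes 23 of 32 had a lower ratio and 1 a higher one. Fkbp5 shows the last pattern: with LPS alone it averaged 41.8 ± 1.22 CPM in mutant and 37.7 ± 2.72 CPM in wild-type cells, and the log2 difference with both agents minus that with LPS alone was -2.69 ± 0.08 SE. Of 20 MHC class I genes, 11 had a higher ratio, but 17 without wild-type replicate 1, 16 without the 3 libraries that stand apart, and 18 without 5 or with an offset for exon length. Of 18 NF-kB feedback genes it was 5, and 9 without 5 libraries that stand apart over all groups.

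Several genes changed sign between the treatments. Fkbp5, Tsc22d3 and Per2 were lower in mutant cells with both agents but higher in mutant cells with LPS alone. Tsc22d3 averaged 18.9 ± 0.414 CPM in mutant and 14.7 ± 0.427 CPM in wild-type cells with LPS alone (adjusted p = 0.000459). Sgk1 did the same, at 98.7 ± 3.04 CPM in mutant and 72.3 ± 1.05 CPM in wild-type cells with LPS alone. In the other direction, like Neurl3, Plk2, a polo-like kinase of the p53 list, was higher with both agents (log2 0.30) and lower with LPS alone (log2 -0.30).

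**Figure D5:**
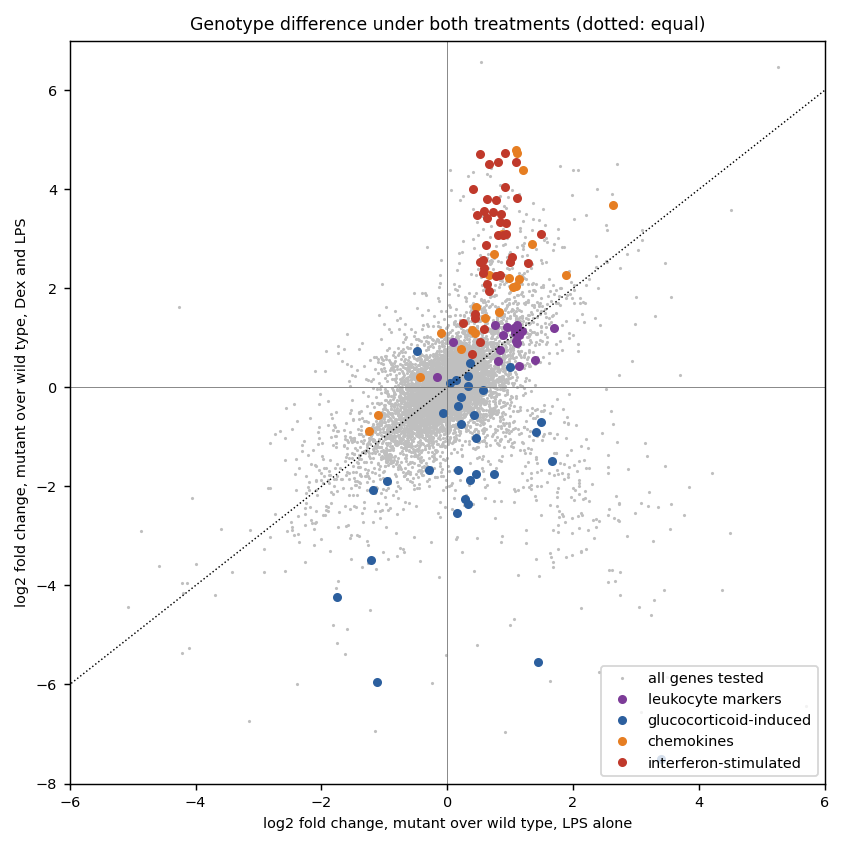
Log2 fold change of GR mutant over wild type with Dex and LPS (y axis) against that with LPS alone (x axis) for all tested genes (grey) and 4 lists; the dotted line marks equal differences, and 4 genes lie outside the axes. Interferon-stimulated genes and chemokines lie above the dotted line, glucocorticoid-induced genes mostly below it, and leukocyte markers near it.

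Markers of some other cell types differed between the genotypes as well, and with every treatment. Of 17 tested leukocyte markers, 16 were higher in mutant cells with both agents, 15 with LPS alone and 15 with vehicle, with a median log2 difference of 1.06, 1.08 and 0.89. Their summed level with LPS alone was 259.7 to 274 CPM in mutant and 127 to 132 CPM in wild-type libraries, and the test of the difference called 0 of 17 higher and 2 lower. Lyz2, lysozyme of macrophages, averaged 97.7 ± 8.04 CPM in mutant and 41.0 ± 3.90 CPM in wild-type cells, and Csf1r, the CSF1 receptor, 17.0 ± 0.721 and 8.15 ± 0.650 CPM. The T cell gene Cd3e had 0 reads in all 6 libraries.

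Few of the endothelial, epithelial, muscle or nerve markers tested were higher in mutant cells. The filter on low counts left 11 of 14 listed endothelial, 5 of 13 epithelial, 8 of 16 muscle and 10 of 14 nerve markers. Of 11 endothelial and pericyte markers 5 were lower and 0 higher in mutant cells, of 5 epithelial markers 3 and 0, of 8 muscle markers 4 and 1 (2 lower without the 3 libraries that stand apart), and of 10 nerve and glia markers 4 and 0. Rgs5, a pericyte gene, had 5.64, 5.09 and 4.83 CPM in mutant libraries, against 35.1, 35.8 and 41.0 CPM in wild-type libraries, and was lower with LPS alone (log2 -3.59) and with vehicle (log2 -3.24). Among 16 cartilage and bone markers, 2 were higher and 3 lower, near the shares of all genes tested (15.0% and 16.8%). Of these markers Col11a1 was 4.68-fold lower. The fibroblast markers themselves gave 11 higher and 0 lower of 14. Pdgfra had 154, 112 and 150.2 CPM in mutant libraries, against 35.2, 38.4 and 44.1 CPM in wild-type libraries, with a log2 difference of 2.12 with LPS alone and 2.21 with vehicle. Liver genes were summed to 21.8 to 26.7 CPM in mutant libraries, against 2.54 to 256 CPM in wild-type libraries, and the highest was wild-type replicate 3. Cyp2e1, a liver cytochrome, had 0, 1.88 and 12.7 CPM in wild-type replicates 1 to 3 and was not called. The part of these cells in the other results was not tested.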

How the data were processed

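RNA-seq counts were deposited as 1 table per library, made with STAR (2.4.2 and 2.4.2a) on mm10, per the submitters' processing notes. The deposited tables hold whole-number read counts per gene for 3 strand settings, per the values, and the column for reads on the reverse strand was used. Depth, 19.51 to 57.95 M counted reads in the 6 libraries, limits low genes, and counting intervals are exact and at 95%. A further 96 per-library columns in other deposited tables were not used.

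Counts of all 24 libraries (8 groups of 3) were fitted with edgeR 4.0.16 (R 4.3.3, limma 3.58.1): TMM scaling, a filter on low counts by group, 15221 genes, a robust quasi-likelihood fit with 1 term per group, and Benjamini-Hochberg adjustment over all genes, with calls at an adjusted p under 0.05. Genotype was compared with Dex and LPS, with LPS and with vehicle, and those differences with each other (5 comparisons). Of the genes tested, 15173 matched GENCODE vM21 for exon length, and promoter windows came from RefSeq GRCm38.p6. Alternatives included DESeq2 1.42.0 on the same counts. The edgeR comparison of genotype with Dex and LPS was tested on simulated counts with the same spread for all genes and no libraries that stand apart. The other comparisons and settings were not tested in this way. Summaries and figures used Python 3.11.15, pandas 2.3.3 and matplotlib 3.10.9.

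The members and the 31 gene lists were chosen with earlier results of these data known. The text names 182 genes by rule: the 3 markers and Nr3c1, the 12 called genes furthest apart in each direction with at least 1 CPM and no overlap, up to 5 tested members per list with the smallest p, the 4 members highest per kb in 3 lists, and the 5 furthest in each direction in the difference from LPS alone. Of these, some are given only by count. Genes named after their values were seen are said to be so.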

Additional observations from a re-analysis of the deposited data

Results flagged for a closer look

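The genotype difference with Dex and LPS differed from that with LPS alone for 1581 genes, and from that with vehicle for 1902, by edgeR's test of the difference. Both are differences between treatments and share no libraries beyond the 6 with Dex and LPS.

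For Ifit1 the difference between the treatments was 3.74 on the log2 scale, for Neurl3 2.07 and for Il6 2.22, each toward a higher mutant level with Dex. Ifit3b, which shares reads with Ifit3, stood at 4.19. Beside it stood 3 genes of mouse chromosome 18: Gm4841 at 3.95, F830016B08Rik at 3.94 and the pseudogene BC023105 at 3.92. Gm4841 had 10.7, 5.77 and 7.64 CPM in mutant libraries, against 0.489, 0.403 and 0.372 CPM in wild-type libraries. F830016B08Rik had 17.4, 3.09 and 11.8 CPM in mutant libraries, against 0.356, 0.403 and 0.673 CPM in wild-type libraries, and the lowest mutant value was again replicate 2.

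In the other direction, Zbtb16 stood at -10.90, Serpina3m at -7.56 and Sult1a1 at -6.98, fitted values that depend on the prior count because mutant libraries held 1 to 3 reads. The other 3 values come from low levels with a wide spread between libraries. Ibsp, a bone sialoprotein, stood at 9.55 and had 6.304, 0 and 0.197 CPM in mutant libraries, against 0.578, 0.134 and 0.230 CPM in wild-type libraries. With LPS alone Ibsp averaged 0.0346 ± 0.0599 CPM in mutant and 2.90 ± 3.18 CPM in wild-type cells. Rps2-ps10, a ribosomal pseudogene, stood at -7.43, with 0.102, 0.0524 and 0.197 CPM in mutant libraries, against 0.133, 0.134 and 2.09 CPM in wild-type libraries. With LPS alone it averaged 1.71 ± 2.54 CPM in mutant and 0.0770 ± 0.0199 CPM in wild-type cells. Slco1b2, a liver transporter, stood at -6.48, with 0.0512, 0.157 and 0.0493 CPM in mutant libraries, against 0, 0.224 and 2.82 CPM in wild-type libraries.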

How the results depend on the processing

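Genotype calls with Dex and LPS numbered 4832, and 4642 by DESeq2, 4839 with RLE size factors, 4364 with no filter on low counts, 4810 with unstranded counts and 5310 with an exon length offset. When the compared libraries alone were fitted, 2492 were called, against 5534 with LPS alone and 2896 with vehicle, and the differences from LPS alone and from vehicle came to 1042 and 1175 genes. The cause was not tested. Without 5 libraries that stand apart the vehicle comparison called 4620 genes and those differences 2970 and 3111. Leaving out each library with Dex and LPS in turn gave 4166 to 5319 genes with both agents, and 1313 to 1935 and 1697 to 2317 for the differences. The same fits gave 3664 to 4260 genes with LPS alone and 2802 to 3259 with vehicle. Libraries of those 2 treatments were not left out in turn, so these ranges show only the shared estimate of spread. Of the 182 named genes, 163 kept their direction and their outcome, called or not called, in the fit of the 6 libraries. A further 11 lost the call, and the rest did not pass the filter on low counts in that fit. With 1 library left out, the log2 difference of Cyp2e1 ran from -3.00 to 0.0483 and that of Hpd from -3.48 to 0.0225, both reversed without wild-type replicate 3. That of Ibsp ran from -1.49, without mutant replicate 1, to 3.43, and that of Rps2-ps10 reversed to 0.18 without 3 libraries.

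Deviations of same-numbered mutant and wild-type libraries correlated at -0.638, -0.304 and 0.513, and mutant replicate 2 went best with wild-type replicate 1 (0.769). Those are the libraries whose deviations ran against exon length. Deviations within a group also cancel out, so that these values cannot show whether replicates were paired by embryo or culture. With the replicate block 4746 genes were called with Dex and LPS, 3609 with LPS alone and 2762 with vehicle, and 1508 and 1853 for the differences. Depth limits genes with few reads, such as Ifnb1.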

Other observations

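Genes of the sex chromosomes were looked at after the Y pseudogene Mid1-ps1 was seen among the lowest genes. Ddx3y, an RNA helicase of the Y chromosome, had 102, 55.0 and 91.2 CPM in mutant libraries, against 51.5, 78.7 and 85.0 CPM in wild-type libraries. The histone demethylases Kdm5d and Uty were likewise present in all 6 libraries and not called. Eif2s3y, a translation initiation factor subunit, had 39.4, 35.9 and 38.9 CPM in mutant libraries, against 42.7, 42.0 and 48.0 CPM in wild-type libraries, and was called lower in mutant cells (adjusted p = 0.0211). Xist, the RNA of X inactivation, had 0 reads in 5 of the 6 libraries and 0.585 CPM in wild-type replicate 3. That library also held the highest liver RNA and the highest Rps2-ps10 and Slco1b2 levels.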
